A study of Drosophila melanogaster with 3 samples.

Results

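The regions described here are places in introns, a short way from a gene's start, where the transcription factor Pdp1 was found on chromatin. They were taken from the thresholded list of Pdp1 peaks in whole embryos of Drosophila melanogaster, in dm6 coordinates. A peak's summit is its point of highest signal. A summit was kept when it lay inside a protein-coding gene, outside coding sequence and untranslated exons, and more than 500 but at most 2000 bp from the nearest transcription start site of a protein-coding gene. This gave 658 of 4622 summits (14.2%, 95% Wilson interval 13.3 to 15.3%), called near-start summits below. For comparison, 2257 summits lay within 500 bp of a start site (promoter summits) and 924 lay in introns more than 2000 bp from one (deep intronic summits).

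The study mapped Pdp1 by chromatin immunoprecipitation and sequencing (ChIP-seq) in 3 biological replicates of a single group. The embryos were of the Pdp1-MiMIC-GFP line, in which an eGFP exon inserted in an intron makes a Pdp1-eGFP fusion from the gene's own locus, and the precipitating antibody recognises GFP. Males and females were pooled at ages from 0 to 24 h, so each sample pools all embryonic stages and tissues, and all samples carry the same allele. No untreated or untagged group was analysed here, sequencing depth is unknown, and the p-values measure the spread between these 3 samples or between peaks.

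Pdp1 belongs to the PAR family of basic leucine zipper (bZIP) proteins, which bind DNA as dimers at a short palindromic site. In flies it is known for its part in the circadian clock, where it activates the gene Clk, and for roles in muscle gene expression, fat body and growth. Introns near a gene's start, the first intron above all, often hold enhancers and alternative promoters, so a factor bound there can lie close to the start site without being at the promoter itself.

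The sequences below were taken at or near these summits. The PAR bZIP site, written TTACGTAA or TTATGTAA and looked for on either strand in the 101 bp centred on each summit, was present at 8 of the 658 near-start summits. The 5 of these given here are shown because this is the site that PAR proteins are known for, and capitals mark it. Each is centred on the site, so the summit can lie outside the bases shown. Only the form TTACGTAA, here in Men, is a palindrome. In rdx and Gapvd1 the site reads TTATGTAA on the other strand. All sequences are from the plus strand of the Release 6 (dm6) genome sequence, 30 bases each.
rdx, 3R:13985144-13985173: atatatacgttTTACATAAattaaattaca
Gapvd1, X:11326502-11326531: atctcgctgttTTACATAAtgatatttgct
Men, 3R:12718330-12718359: tttactagaaaTTACGTAAtttctttagat
alpha-Est10, 3R:7492232-7492261: atcttatattaTTATGTAAgattctaatac
B4, 2L:13548431-13548460: tttcagccaccTTATGTAAcgtgttgctcc

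The strongest near-start summits mostly held no such site. The next sequences are centred on the summits of 5 of the 6 peaks of highest pooled signal, and are in lower case throughout because no PAR site lies in them. Of these, CG9663 is the richest in G and C, at 43.3%.
ush, 2L:481040-481069: atctctgaaaagtttaagttttatttttct
CG11050, 2L:6612698-6612727: aattaatacaagattagattttgtattgct
Lk6, 3R:11761036-11761065: cacataaactaaacgtatttcactgaacag
CG9663, 2L:3302160-3302189: atctgaagacatgcgggcatagtaaacaca
CG32772, X:4910355-4910384: aaagttaagcggttataaaactaacaaaac

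A last set shows the short words in which near-start and promoter summits differed. Capitals mark AAAGATA, on either strand, in the first 4 sequences, and TATCGATA, the DNA replication-related element (DRE) bound by the factor DREF, in the other 2. These sequences are centred on the word, so the summit can lie outside them. The DRE pair is shown because it was nearly absent from near-start summits, which held it at 3 of 658.
brat, 2L:19165171-19165200: cctattttaatgTATCTTTtatcaacacgg
NFAT, X:13641154-13641183: gcttacaaatttTATCTTTatccggaaata
CHES-1-like, X:7703159-7703188: tataattctcccTATCTTTtttaggattaa
ImpL2, 3L:4228354-4228383: tatatttaaccaTATCTTTaatctcagttt
Stt3A, X:21053310-21053339: gtgtatcaagcTATCGATAttctagcaggg
CG2201, 2L:21619364-21619393: ccagtattatcTATCGATAtcccagaaaaa

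Intronic binding thinned out with distance from the start site, and within the near-start range it was concentrated in first introns. Near-start introns, 10.4 Mb of sequence, held 63.4 thresholded summits per Mb, and deep introns, 42.3 Mb, held 21.9 per Mb. In the top lists of replicates 1, 2 and 3, the 4622 peaks of highest signal in each, the near-start density was 61.8, 61.0 and 63.3 per Mb and the deep intronic density 20.3, 24.7 and 22.1 per Mb. The ranges did not overlap, and the near-start density was higher by 1.48 ± 0.156 on the log2 scale (SD, n = 3), a ratio of 2.79 ± 0.295. With 3 replicates the two-sided exact sign-flip permutation test cannot go below p = 0.25, which was its value here.

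Split into distance bins, the replicate mean was 84.5 ± 3.31 summits per Mb of intron (SD, n = 3) at 500 to 750 bp, 67.7 ± 6.47 at 750 to 1000 bp and 61.6 ± 1.17 at 1000 to 1250 bp. It was 52.6 ± 1.53 at 1250 to 1500 bp, 48.2 ± 2.35 at 1500 to 1750 bp and 48.4 ± 4.60 at 1750 to 2000 bp. The fall went on outside both limits of the range, and the last pair of bins differed by less than their spread. Closer to the start site, at 250 to 500 bp, introns had 111 ± 1.97 per Mb, and at 5000 to 10000 bp they had 26.3 ± 2.79.

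The density fell with distance in first introns, and in later ones mainly within 1000 bp of the start site. A first intron here is the first intron of any annotated transcript. In first introns the replicate mean fell from 95.3 ± 3.30 per Mb (SD, n = 3) at 500 to 750 bp to 60.4 ± 5.92 at 1750 to 2000 bp, and then to 34.1 ± 2.78 at 5000 to 10000 bp. In later introns it was 55.6 ± 4.75 per Mb at 500 to 750 bp and 24.0 ± 3.87 at 750 to 1000 bp. Beyond that, the bins out to 10000 bp had between 18.2 ± 0.959, at 2500 to 3000 bp, and 30.7 ± 3.62, at 1750 to 2000 bp. It was 30.5 ± 2.30 per Mb over the near-start range and 14.9 ± 2.26 in all deep later introns. The interaction of distance and intron position was not tested.

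**Figure D1:**
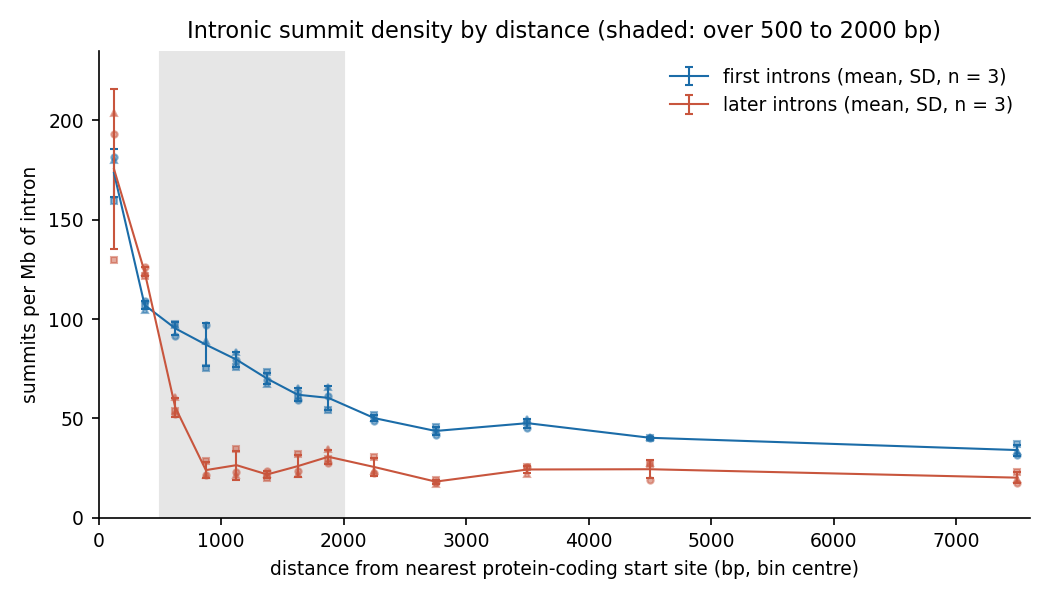
Intronic summits per Mb of intron (y axis) against distance from the nearest protein-coding start site in bp (x axis, bin centres), for first and later introns. Points are the 3 replicate top lists, lines with bars their mean and SD, and shading marks the near-start range; first introns lie above later ones in each bin from 500 bp outward.

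Of the 658 near-start summits, 549 (83.4%) were in a first intron, which made up 66.1% of near-start intronic sequence. The density was 80.1 per Mb in first introns (95% Poisson interval 73.5 to 87.0) and 31.0 per Mb in later introns (25.4 to 37.4). By replicate, first introns had 78.9, 75.4 and 80.3 per Mb and later introns 28.4, 33.0 and 30.1 per Mb, a ratio of 2.58 ± 0.257 (SD, n = 3). In deep introns the same ratio was 2.38 ± 0.207. By replicate it was 2.78, 2.29 and 2.67 near the start and 2.52, 2.14 and 2.47 in deep introns. It was thus somewhat higher near the start within each replicate, a difference that was not tested. When only first introns were counted, an alternative chosen after seeing the data, the near-start density was still 2.24 ± 0.195 times the deep one.

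A further 72 near-start summits had a second intron as their earliest, 14 the next and 23 a later one. Introns that precede the start codon of a transcript held 403 near-start summits (61.2%), against 49.0% of near-start intronic sequence. Their density was 75.7 ± 1.29 per Mb (SD, n = 3), and that of the other near-start introns was 48.9 ± 1.20, a ratio of 1.55 ± 0.0235. Deep introns had a like contrast, with 28.7 ± 3.73 per Mb before the start codon and 18.9 ± 1.47 elsewhere, a ratio of 1.51 ± 0.0951. Many introns before the start codon are also first introns, and the 2 properties were not separated.

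Near-start summits lay on both sides of the start site they were closest to. There were 425 (64.6%) downstream of it and 233 (35.4%) upstream of it. Per Mb of near-start intron the density was somewhat lower downstream than upstream, at 59.6 ± 2.70 downstream and 67.1 ± 2.49 upstream (SD, n = 3), a ratio of 0.890 ± 0.0692. An upstream summit can lie in an intron when the start site is an alternative one inside the gene, as for 185 summits (28.1%), or that of another gene. For 60 summits (9.12%) the nearest start site belonged to a gene other than the host. Deep intronic summits had an alternative start site of the host downstream of them in 16.0% and another gene's start site nearest in 23.4%.

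The near-start summits had a median distance of 1032 bp from the start site (range 501 to 1993). The shortest intron that held them had a median length of 4626 bp, and they lay a median of 893 bp from its 5′ splice site. The peak interval reached into an exon for 56 of them (8.51%), and into coding sequence for 38. The CG11050 peak is one: its summit lies in an intron of 140 bp. Just inside the lower distance limit, at 501 to 524 bp, 26 summits had a median pooled signal of 184, and the 11 intronic summits just outside it, at 476 to 495 bp, had 217. At the upper limit, 5 summits at 1978 to 1993 bp had a median of 173, and 8 at 2003 to 2024 bp had 191.

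The near-start share of the peaks was steady across replicates and across signal. The top lists held 641, 633 and 657 near-start summits in replicates 1, 2 and 3, or 13.9% ± 0.264 (SD, n = 3). With the thresholded peaks divided by pooled signal into 4 bins of equal number, the share was 14.2% in the strongest bin, then 13.4%, 15.1% and 14.3% in the weakest. Of the 23097 pooled peaks below the threshold, 10.1% were near-start, below the 95% interval of each of those bins. Near-start summits lay on all arms, 169 on 3R, 147 on X, 119 on 3L, 114 on 2R and 108 on 2L, with 1 on chromosome 4.

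Of the near-start summits, 381 (57.9%) had a summit within 100 bp in the top lists of all 3 replicates, 192 in 2, 80 in 1 and 5 in none. The 5 were in Kdm2, brat, milt, HmgD and Pgd, and had pooled signals of 105 to 120. Support in all 3 was 55.2% for promoter summits, a difference of 2.70 percentage points (95% interval -1.62 to 6.94, Fisher's exact p = 0.229). For deep intronic summits it was 54.1%, a difference of 3.79 points (-1.18 to 8.71, Fisher's exact p = 0.137). Neither passed after Benjamini-Hochberg adjustment over 6 exact tests (adjusted p = 0.457 and 0.411). Replicate 2 stood apart, with 557 of the near-start summits in its whole list of 30000 peaks against 648 in replicate 1 and 642 in replicate 3. Without replicate 1 the difference from deep intronic summits turned to -1.04 points. With a match within 50 bp, 282 of the 658 near-start summits had support in all 3, and within 200 bp 409 did.

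The signal value, given by the authors' peak caller and not scaled between lists, had a median over near-start summits of 67.5, 55.8 and 56.1 in replicates 1, 2 and 3. Promoter summits had 75.4, 65.8 and 56.5, and deep intronic summits 63.2, 51.0 and 50.5. These medians cover only summits with a match within 100 bp in the replicate's whole list. Those were 648, 557 and 642 near-start, 2180, 1859 and 2170 promoter, and 905, 795 and 898 deep intronic summits. The near-start median thus lay between those of the other classes in each replicate, with a log2 ratio of -0.14 ± 0.12 to promoters and of 0.13 ± 0.03 to deep introns (SD, n = 3; two-sided exact sign-flip permutation p = 0.25 for each, the smallest possible). In replicate 3 the medians of near-start and promoter summits were almost the same. Across the near-start summits found in both of a pair of replicates, Spearman's rho of the signal was 0.742 for replicates 1 and 2 (548 summits), 0.781 for 1 and 3 (632) and 0.738 for 2 and 3 (545); summits are not independent replicates.

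The strongest near-start summit by far lay in ush, which encodes the u-shaped protein, a cofactor of GATA transcription factors. The peak at 2L:480859-481340 had signals of 1238, 1158 and 962 in replicates 1, 2 and 3, or 1119 ± 142 (SD, n = 3). It sits in the first intron of ush, and the nearest start site, 1367 bp away, is that of the neighbouring gene cbt, which encodes the zinc finger factor cabut, so the peak cannot be assigned to either gene from position alone. All 3 of its values were above those of every other near-start summit. The ush gene held 2 more near-start summits, at 2L:521958-522367 with 86.0, 45.3 and 65.2, and at 2L:522742-523151 with 58.3 and 39.8 in replicates 1 and 2 and no match in replicate 3. Those 2 lay upstream of another ush start site, at 1303 and 519 bp.

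Next came a peak in CG11050 at 2L:6612478-6612922, with 948, 661 and 749, and one in Lk6 at 3R:11760857-11761256, with 895, 642 and 630. Lk6 encodes a kinase of the translation initiation factor eIF4E, and its peak lay in a first intron 972 bp upstream of an alternative start site. Both were highest in replicate 1. The peak in Trl, which encodes the GAGA factor, was at 3L:14759305-14759750 with 528, 449 and 385, and 2 further summits in Trl had means of 109 ± 49.8 and 68.7 ± 22.8 (SD, n = 3).

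The peak in Adf1, a transcription factor gene, at 2R:6662846-6663282 differed most between replicates among the 20 strongest, with 402, 713 and 348; replicate 2 was the high one, and the SD was 40.4% of the mean. HmgZ, which encodes a high mobility group chromatin protein, had a peak at 2R:21703124-21703686 with 666, 729 and 401. That summit also lies within HmgD, its near relative, which overlaps it. The other strong hosts had means between 272 and 594. They included CG9663, CG32772, CG9837, LPCAT (a phospholipid acyltransferase), NFAT (a transcription factor), for (a cGMP-dependent protein kinase), wde (a cofactor of a histone methyltransferase), mub (an RNA-binding protein), chif (the Dbf4 homologue of DNA replication), Zw (glucose-6-phosphate dehydrogenase), norpA (a phospholipase C), Reph and Csk (a kinase that inhibits Src). All 20 were in the top list of each replicate, 18 were in a first intron, and 11 lay downstream and 9 upstream of the nearest start site.

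**Figure D2:**
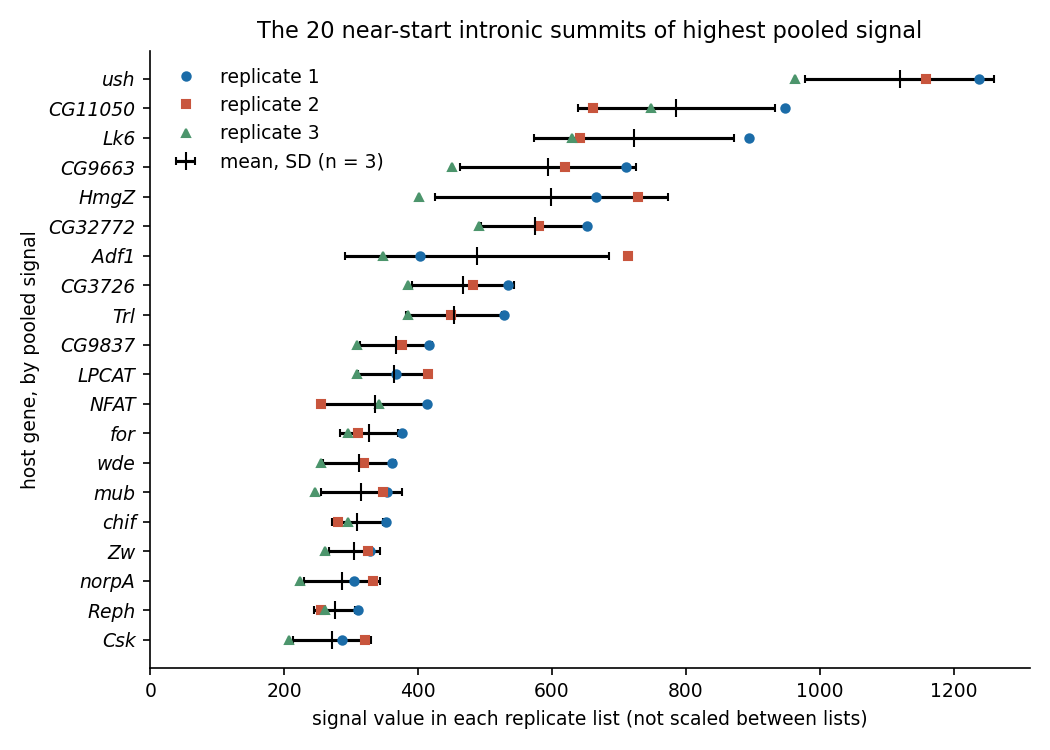
Signal in each replicate list (x axis, not scaled between lists) for the 20 near-start summits of highest pooled signal, labelled by host gene (y axis). Symbols are the 3 replicates and bars the mean and SD; the ush values, 962 to 1238, lie above all others.

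Among the near-start summits found in all 3 whole replicate lists, 536 in number, the signal was highest in replicate 1 for 336, in replicate 2 for 120 and in replicate 3 for 80. The lists' own medians over 30000 peaks were 21.3, 15.1 and 15.2, in the same order for replicate 1. Differences between replicates at a single summit therefore mix the scale of the lists with binding.

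Near-start summits were spread over 566 genes, and 463 of these held 1. Since 11709 protein-coding genes have near-start intronic sequence, 4.83% of them held a near-start summit. Host genes had far more such sequence, with a median of 3211 bp against 198 bp over all genes with any. Another 78 genes held 2, and 25 held 3 or more. Summits in one gene are not independent, and 51 (7.75%) had another thresholded summit within 250 bp. Whether such neighbours are one bound region or separate sites was not tested. Examples are 2 pairs in tou, 207 and 201 bp apart, and a pair in larp, 250 bp apart.

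Tlk, which encodes the Tousled-like kinase of chromatin assembly, held 6 near-start summits, next to several of its 8 start sites. The strongest, at X:3774346-3774571, had 157, 142 and 158, which is 152 ± 9.15 (SD, n = 3). The next, at X:3750573-3750816, had 134, 139 and 103. At the first of these the replicates were nearly equal, and at the second replicate 3 was lower. CHES-1-like, a forkhead factor gene, held 3 of like strength, with means of 192 ± 32.7, 147 ± 22.6 and 134 ± 30.9 (SD, n = 3). NFAT held 3, the second of which, at X:13641062-13641376, has the AAAGATA word shown above and had 225, 209 and 182. C3G, the gene of an exchange factor for Ras-family GTPases, also held 3, the strongest with 92.3, 101 and 75.2.

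The most near-start summits in 1 gene, 8, were in CG1677 on the X chromosome. Its gene body of 124709 bp spans other genes, and none of the summits named next has a start site of CG1677 as its nearest. The strongest lay 1016 bp upstream of CBP, at X:7336178-7336468, with 167, 159 and 129. A summit 804 bp upstream of brk, the repressor of Dpp target genes, at X:7306930-7307339, had 97.8, 92.2 and 43.7, low in replicate 3. Another lay 1943 bp upstream of brk, with 53.6, 37.6 and 35.2. A summit 1948 bp upstream of unc-119 had 90.9, 74.5 and 81.1. Elsewhere, KCNQ, a potassium channel gene, held a summit whose nearest start site was that of mlt (mean 249 ± 30.2, n = 3), drk, the gene of a receptor adaptor, 1 near mars (150 and 117 in replicates 1 and 3 and no match in replicate 2), and Ggt-1 1 near Wnt5, a ligand gene (mean 107 ± 34.4, n = 3).

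The hosts included genes of several signalling pathways. Of 15 genes of Dpp and activin signalling with near-start introns, 5 held a near-start summit, 8 summits in all or 186 per Mb of such intron, against 63.4 per Mb over all genes. In the replicates the density was 209 ± 40.2 per Mb (SD, n = 3). Here and for the lists below, the genes counted and named are hosts in the thresholded list, 4.83% of all genes with such intron, and densities with an SD are means of the replicate top lists, whose hosts can differ. A host need not be the gene whose start site is nearest. The hosts span the pathway. Among the receptors, wit had 163, 128 and 108 at 3L:4070513-4070722, and put had 74.8, 47.1 and 88.9. Among the transducers, Mad had 157, 116 and 141 at 2L:3153273-3153540, and Smox had 68.6, 26.1 and 41.2, low in replicate 2. The cofactor gene shn held 4, the strongest with 67.4, 62.9 and 76.4. The repressor brk is a nearest start site but not a host, as given above. The values of shn and Mad were close among replicates, and those of put and Smox were not.

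Of 21 genes of receptor tyrosine kinase and MAPK signalling, 8 held a near-start summit: Egfr and htl among the receptors, drk and Raf in the cascade, msn among the kinases, aop and pnt among the nuclear effectors, and sty, an inhibitor. The list had 124 ± 15.5 per Mb (SD, n = 3). The Raf summit, at X:2296336-2296501, had matched values of 14.4, 79.5 and 74.1 and a pooled signal of 328. The low value of replicate 1 is that of its nearest summit within 100 bp. Whether a stronger summit of replicate 1 lay close by was not tested. The summit in sty had 65.6, 64.0 and 47.2. The Egfr summit lay nearest to the start site of CG30286, and its values were 57.9, 28.5 and 35.5.

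Of 18 genes of lipid storage and the fat body, 6 held 1, or 160 ± 29.2 per Mb (SD, n = 3). The strongest were in bmm, the lipase brummer, at 3L:14784884-14785234 with 193, 177 and 191, and in Lsd-2, a perilipin of the lipid droplet, at X:15075001-15075261 with 206, 155 and 143. The bmm values were close to each other (SD 9.02), and Lsd-2 was highest in replicate 1. The other 4 were in mdy (a diacylglycerol acyltransferase), ACC, FASN1 and Lpin, with pooled signals of 105 to 171. The ACC summit was nearest to the start site of Nup44A. Of 19 insulin and TOR genes 3 held 1, Lk6 as above, Sik3, and InR, the insulin receptor, at 3R:21590703-21590972 with 205, 92.4 and 187, low in replicate 2. The Sik3 summit was nearest to the start site of CG15071.

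Of 23 Polycomb and trithorax genes 4 held a near-start summit (Trl, ph-p, trx and brm). The brm summit was nearest to the start site of CG17028. The list had 6 summits in 17.6 kb of near-start intron, 3 of them in Trl. The replicate density was 342 ± 98.7 per Mb (SD, n = 3). Of 8 corepressor genes 4 held a near-start summit (Sin3A, sbb, CtBP and ttk), at 136 ± 56.9 per Mb. The sbb summit was nearest to the start site of CG14505. Replicate 2 held 2 summits of this list, and replicates 1 and 3 held 5 and 4. Of the 6 GATA factors and partners, ush and GATAd were hosts in the thresholded list, at 171 per Mb, and the replicate density was 157 ± 24.7 per Mb from 2, 1 and 3 genes in replicates 1, 2 and 3. The cell adhesion and cytoskeleton genes had 6 of 23 hosts at 109 ± 21.8 per Mb, among them tsr, crb, rhea and shot. Hedgehog signalling had 2 of 9 (boi and ptc), and 218 ± 75.5 per Mb in the replicates, from 2, 2 and 1 summits.

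Lists tied to the known roles of Pdp1 had densities of 35.3 to 160 per Mb, the fat body list above being the highest of them. Of 19 clock genes 3 held a near-start summit (sgg, dco and ctrip), and the replicate density was 35.3 ± 17.6 per Mb (SD, n = 3). The sgg summit, in the gene of the kinase shaggy, had 69.8, 53.6 and 47.6. Of 23 contractile muscle genes 1 did (Msp300), at 20.4 per Mb in the thresholded list. The replicates held 2, 1 and 3 summits of this list, or 40.8 ± 20.4 per Mb. Likewise, of 23 genes of muscle specification and fusion 4 did (kirre, mbc, htl and rols), at 55.9 ± 22.4 per Mb. The mbc summit had 76.6, 142 and 102, high in replicate 2. Of 15 bZIP genes, CrebB (2 summits) and kay, the fly Fos, held summits, at 70.4 ± 22.2 per Mb. None of the summits was in Pdp1 itself.

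Most of the remaining lists had replicate densities near the 62.0 per Mb of all genes. Ecdysone and juvenile hormone genes had 4 of 16 hosts (br, gce, Hr4 and tai) and 55.3 ± 13.8 per Mb (SD, n = 3). Nervous system genes had 3 of 19 (brat, elav and insc) and 58.0 ± 12.6 per Mb, and Wingless signalling genes 2 of 14 (Wnt4 and sgg) and 65.8 ± 14.2 per Mb. The Wnt4 summit was nearest to the start site of CG31909. Notch signalling had 1 of 13 (neur) and 57.1 ± 19.8 per Mb, trachea genes 1 of 13 (crb) and 36.9 ± 16.0 per Mb, and Hox genes and cofactors 1 of 10 (Abd-B) and 60.1 ± 20.8 per Mb. Hippo signalling (11 genes), maternal, gap and pair-rule patterning (17) and cytosolic ribosomal proteins (18) had none in the thresholded list. The latter 2 lists also had none in any replicate, but they have only 9.77 and 6.89 kb of near-start intron, so that a single summit would have given over 100 per Mb. With so few summits per list the densities have wide counting intervals, for example 80.1 to 366 per Mb for the Dpp list and 63.6 to 264 for the kinase list. The lists were chosen with results of these data known, so their densities are a description.

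**Figure D3:**
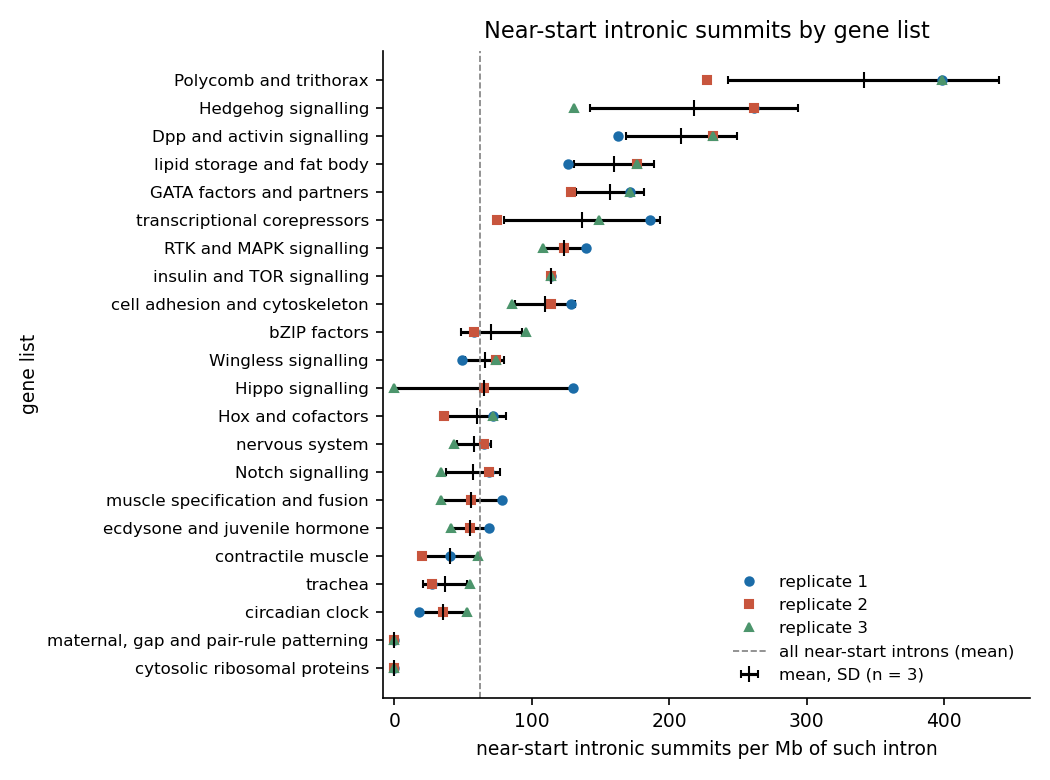
Near-start intronic summits per Mb of near-start intron (x axis) in the genes of each list (y axis). Symbols are the 3 replicates, bars the mean and SD, and the dashed line the replicate mean over all genes, 62.0 per Mb; the Polycomb and trithorax list is highest and the patterning and ribosomal protein lists are at 0.

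Genes with a near-start summit more often had a promoter summit too than genes with a deep intronic one, though the difference did not pass the adjusted threshold. Leaving out 158 genes that held both kinds, 170 of 408 genes with a near-start summit (41.7%) and 117 of 357 with a deep intronic one (32.8%) had a promoter summit. The difference was 8.89 percentage points (95% interval 2.02 to 15.6, Fisher's exact p = 0.0135, adjusted p = 0.0807 over 6 tests). With summits supported by the other 2 replicates only, it was 14.0 points without replicate 1 (adjusted Fisher's exact p = 0.000485), 9.15 without replicate 2 (adjusted p = 0.056) and 12.3 without replicate 3 (adjusted p = 0.0047). At the nearest start site itself, 160 near-start summits (24.3%) had a promoter summit, so for most of them no thresholded summit lay within 500 bp of that start. With the near-start summits divided into 4 bins by signal, the share with one was 31.5% in the strongest bin, then 26.1%, 18.3% and 21.3% in the weakest.

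On average the near-start summits sat in a narrow dip of G and C content. Windows of 50 bp at the summit held 33.2% G and C on average. Those 250 bp nearer the start site held 44.2%, those 250 bp farther from it 43.4%, and those 1000 bp farther from it 41.5%. In the 101 bp around the summit the content was 34.3% ± 0.486 (SD, n = 3) in the replicate top lists, against 41.9% ± 0.454 in windows 500 bp away on the side opposite the start site. All near-start intronic windows of that length averaged 39.1%, and 507 of the 658 near-start summits (77.1%) were below this.

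Deep intronic summits had nearly the same content, 33.8% ± 0.108, a difference of 0.460 ± 0.439 points (SD, n = 3). Promoter summits had 36.8% ± 1.58. Near-start summits were lower than promoter summits by 3.17, 1.19 and 3.25 points in replicates 1, 2 and 3 (mean -2.54 ± 1.17, SD; two-sided exact sign-flip permutation p = 0.25, the smallest possible). The dip was on the summit for both intronic classes. At promoters the lowest value, 33.7%, was 50 bp from the summit on the side away from the start site.

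**Figure D4:**
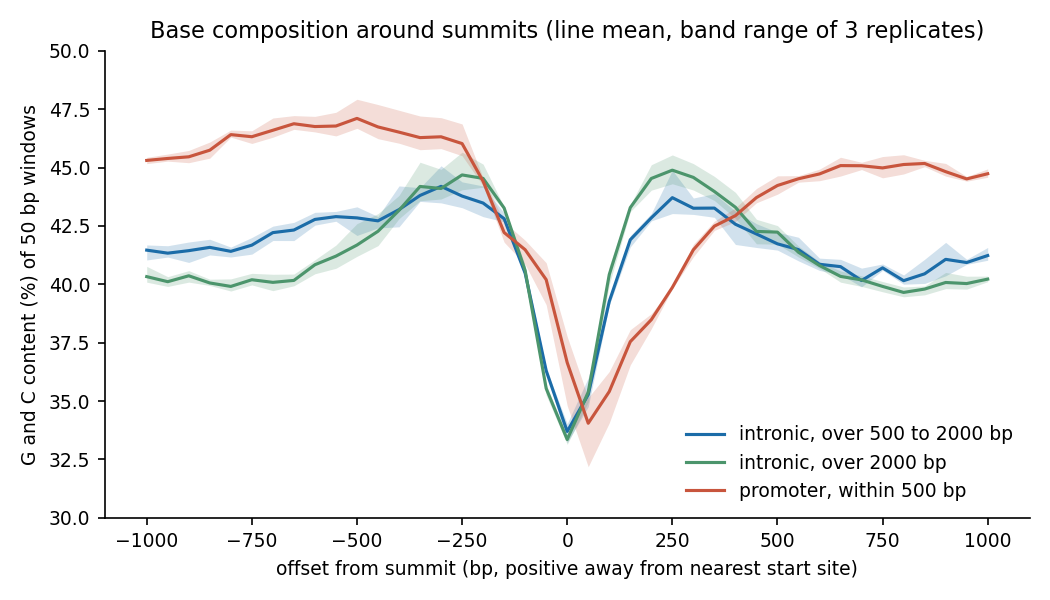
Mean G and C content in percent of 50 bp windows (y axis) against offset from the summit in bp (x axis, positive away from the nearest start site) for near-start, deep intronic and promoter summits. Lines are the mean and bands the range of the 3 replicate top lists; both intronic classes have a narrow minimum on the summit.

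Short words were compared between the 101 bp windows at near-start summits and their own flanks 500 bp away, for all 6-mers found in at least 20 windows, a 6-mer and its reverse complement counting as one. Of 1892 tested, 127 (6.71%) were more frequent at the summits and 133 (7.03%) less frequent (exact McNemar test, Benjamini-Hochberg adjusted p under 0.05). The more frequent were led by words of A and T alone, of which 31 of the 36 possible were called. ATTTTA was in 194 summit windows and 85 flanks, TTAAAA in 201 and 96, and AAAATA in 223 and 119 (adjusted exact p = 4.94e-10, 2.1e-08 and 5.04e-08). The less frequent were led by AGAGCG, in 7 summit windows and 43 flanks, and CGTCGC, in 3 and 33 (adjusted exact p = 2.69e-05 for both).

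A comparison restricted to a range of base composition left fewer pairs and fewer words. Among the 166 pairs in which both windows held 25 to 40% G and C, an alternative chosen after seeing the data, none of 462 6-mers passed, with 49 at an unadjusted exact p under 0.05. The parts of composition and of the smaller number of pairs were not separated. In the peaks left without replicate 1, 2 or 3, 171, 122 and 159 6-mers were called. In all near-start intronic windows, 102847 in number, ATTTTA was found in 18.2%, between the 29.5% of the summits and the 12.9% of their flanks.

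Against promoter summits, near-start summits seldom held words of the DRE or words that overlap it. Of 2051 6-mers tested, 10 (0.488%) were more frequent at near-start summits and 18 (0.878%) less frequent (Fisher's exact test, adjusted p under 0.05). CGATAG, which shares 5 bases with the DRE, was at 11 near-start summits (1.67%) and 250 promoter summits (11.1%), with an adjusted exact p of 4.71e-14. TATCGA was at 23 (3.50%) and 295 (13.1%), with an adjusted exact p of 2.97e-11. ATCGAT, the centre of the DRE, was at 19 (2.89%) and 232 (10.3%), with an adjusted exact p of 5.26e-08, and did not pass in windows of 25 to 40% G and C (adjusted exact p = 0.223). The other two remained past the threshold in windows of 25 to 40% G and C, with adjusted exact p of 0.0047 and 0.000612, and were the 2 6-mers called there.

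In the replicate top lists, TATCGA was in 3.52% ± 0.420 of near-start windows and 12.7% ± 2.07 of promoter windows (SD, n = 3). The level at near-start summits was that of their surroundings: 2.85% ± 0.305 of their flanks, 3.91% ± 0.437 of deep intronic summits and 3.59% of all near-start intronic windows held it. The full DRE, TATCGATA, was at 3 near-start summits (0.456%) and 95 promoter summits (4.21%), and in 0.211% of all near-start intronic windows. Other words below the promoter level were TGGCAA (4.86% against 10.8%), CTGGCA (2.43% against 7.04%) and CAACAC (4.10% against 9.35%). None of these 3 passed among the 443 near-start and 1261 promoter windows of 25 to 40% G and C. The parts of composition and of the smaller number of windows were not separated.

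The words more frequent at near-start than at promoter summits were AAGATA, at 80 (12.2%) against 156 (6.91%), and AAAGAT, at 85 (12.9%) against 170 (7.53%), with adjusted exact p of 0.00798 and 0.00924. The other 8 included ACAATG, at 52 near-start summits (7.90%) against 91 (4.03%), and CCTTGA, at 32 (4.86%) against 47 (2.08%), with adjusted exact p of 0.02 and 0.0324. In the replicate top lists AAGATA was in 12.2% ± 1.69 of near-start windows, 10.7% ± 0.743 of deep intronic ones and 7.15% ± 0.788 of promoter ones (SD, n = 3). Their flanks had 6.82% ± 0.885, and all near-start intronic windows 7.10%. At 25 to 40% G and C, 443 near-start and 1261 promoter windows, none of these 10 passed (Fisher's exact test, adjusted p = 0.346 for AAGATA, and 130 6-mers at an unadjusted p under 0.05). The joined word AAAGATA was at 34 near-start summits (5.17%), 2.48% of promoter summits and 2.88% of all near-start intronic windows. The count of 28 called against promoters was 5, 12 and 5 in the peaks left without replicate 1, 2 and 3.

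Between near-start and deep intronic summits no word passed the test. None of 1758 6-mers passed (0% called, Fisher's exact test), with 66 at an unadjusted p under 0.05. The smallest unadjusted exact p belonged to GCAATA, at 28 near-start (4.26%) and 76 deep intronic summits (8.23%; adjusted p = 1).

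**Figure D5:**
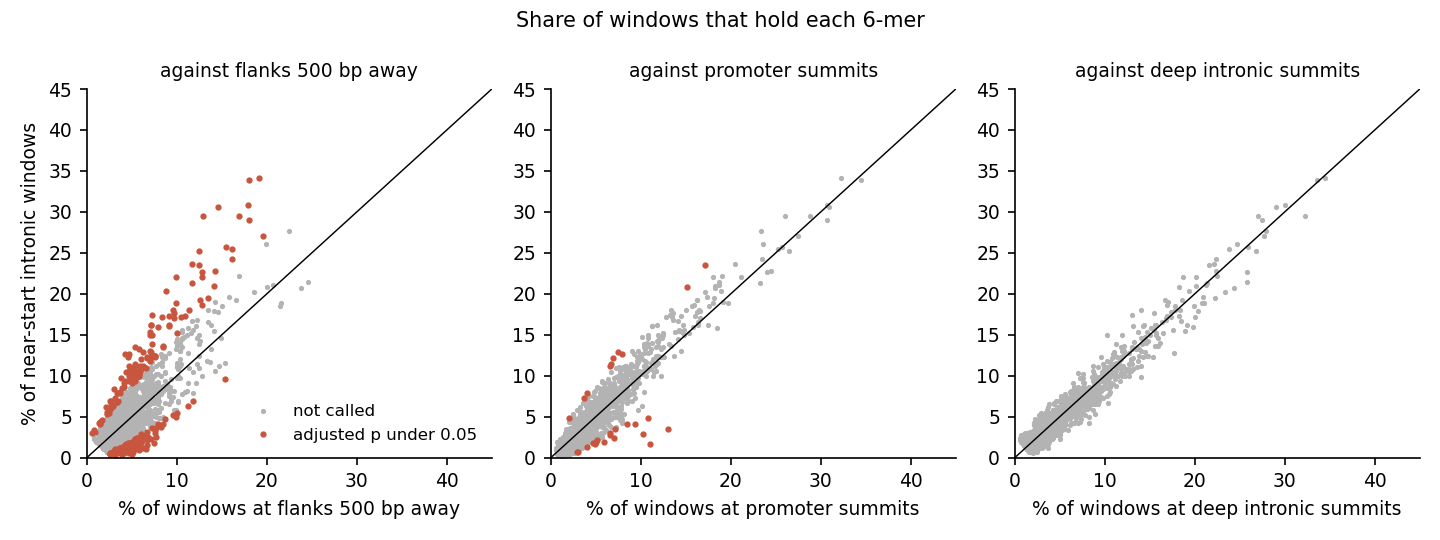
Share of near-start summit windows in percent (y axis) against the share of windows at flanks, promoter summits and deep intronic summits (x axes) for each 6-mer tested. Coloured points passed an adjusted p under 0.05 and the line marks equal shares; 260 are coloured against flanks, 28 against promoters and 0 against deep introns.

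The PAR bZIP site itself was rare at near-start summits, and no difference from the other regions passed an adjusted test. It was at 8 of 658 (1.22%, 95% Wilson interval 0.617 to 2.38%) and at 4 of the flanks (0.608%; exact McNemar p = 0.388, adjusted p = 0.582). Against flanks toward the start site it was 8 to 1 (exact McNemar p = 0.0391, adjusted p = 0.117), a difference of 1.06 points. Within 100 bp it was 19 to 8 (exact McNemar p = 0.0522, adjusted p = 0.157), a difference of 1.67 points. Promoter summits had it at 26 of 2257 (1.15%; difference 0.0638 points, 95% interval -0.736 to 1.28, Fisher's exact p = 0.839) and deep intronic summits at 14 of 924 (1.52%; difference -0.299 points, -1.48 to 1.02, Fisher's exact p = 0.669). All near-start intronic windows of the same length held it in 0.932%. The form TTATGTAA accounted for 6 of the 8 and TTACGTAA for 2.

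Of the 20 strongest near-start summits, 1 held a PAR site. Of the sites shown above, the one with the highest pooled signal was in rdx, a substrate adaptor of a ubiquitin ligase, with 118 and 99.6 in replicates 1 and 3 and no match in replicate 2. The Gapvd1 summit had 82.9, 65.1 and 77.0. The summit in Men, the malic enzyme gene, had 69.0, 43.0 and 39.7. Another 4, in alpha-Est10, lbk, Oda (the ornithine decarboxylase antizyme gene) and B4, had pooled signals from 107 to 153, and 3 of these 4 lacked a match in at least 1 whole replicate list.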

How the data were processed

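The members and gene lists were chosen with earlier results of these data known. The authors deposited narrowPeak lists per replicate, pooled and thresholded for reproducibility, each with a signal value per peak and, in the thresholded list, a −log10 q-value that is the same for all peaks. Per the labels, chromatin was sonicated to 200 to 800 bp. The sources used here do not give the aligner, the peak caller or their versions. The signal is the authors' and is not scaled between lists and only describes or ranks peaks.

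Summits were annotated with Ensembl release 115 gene models and the Release 6 sequence, on 6 chromosome arms. A replicate's top list is its 4622 strongest of 30000 peaks, and a summit within 100 bp counts as a match. The signal given for a replicate is that of its nearest summit within 100 bp, which need not be its strongest there. Words were searched in 101 bp windows. Densities divide summits by intronic bases in the same range. Classes were compared over replicates by a two-sided exact sign-flip test and over peaks by Fisher's exact or McNemar tests, two-sided, adjusted by the Benjamini-Hochberg method within families of 5 and 6, or over all 6-mers. Intervals are 95% and cover counting error only. The word tests were checked on simulated windows. Of the 22 gene lists, 5 entries were matched by synonym and 6 had no match. Named genes are taken from hosts of the 20 strongest summits, hosts of 3 or more, up to 3 per list and holders of the PAR site; other names were chosen after their values were seen. Alternatives changed the peaks, replicates, summit position, distance limits, match distance, windows, flanks and word length. Computation used Python 3.11.15, NumPy 2.4.6, SciPy 1.17.1 and pandas 2.3.3. The peak at 1 of the PAR sites, among the 20 strongest, is not reported here.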

Additional observations from a re-analysis of the deposited data

How the results depend on the processing

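Of 159 results under alternatives, 120 kept their direction and side of the threshold, or stayed within the bounds set for shares and counts. The 120 include all those on signal, G and C content and density. Their exact sign-flip test cannot pass the threshold with so few replicates, so only their direction could change. The near-start share of thresholded summits, 14.2%, was 13.8% in the stronger peaks, those above the median signal, 14.9% in peaks supported in all 3 top lists, 14.5 to 14.9% without any 1 replicate and 7.40% over 1000 to 2000 bp, a narrower range by construction. The difference in PAR site share from promoters turned to -0.496 points in the stronger peaks, -0.738 in peaks supported in all 3, -0.455 to -0.400 without any 1 replicate and -0.151 for the looser site, and that from deep introns to 0.398 within 100 bp. None of these passed an exact test. Support against deep introns turned to -1.04 points without replicate 1 and reached 5.57 without replicate 2. The excess of host genes with a promoter summit passed in the stronger peaks (12.3 points) and in peaks supported in all 3 (13.3). It reached 9.15 to 14.0 points without any 1 replicate, and did not pass without replicate 2. Nor did it pass at the peak midpoint (8.95 points) or over 1000 to 2000 bp (8.0). Away from noncoding starts the excess was 7.7 points and did not pass either. The 260 6-mers called against flanks became 89 in the stronger peaks, 135 in supported peaks, 122 to 171 without any 1 replicate, 74 over 1000 to 2000 bp, 71 within 25 bp, 414 within 100 bp, 445 with the flank toward the start site, 70 with 7-mers, 171 with at least 50 windows and 0 at 25 to 40% G and C. The 28 against promoters became 6 in the stronger peaks, 2 in supported peaks, 5 to 12 without any 1 replicate, 10 over 1000 to 2000 bp, 8 within 25 bp, 104 within 100 bp and 2 at 25 to 40% G and C. Many flanks toward the start site are centred within 500 bp of it. Most of these alternatives leave fewer windows, and the cause was otherwise not tested. The density ratio of near-start to deep introns was between 1.16 and 1.68 on the log2 scale under all its alternatives. No paired analysis was possible because all samples belong to a single group, so none could be paired across groups, while classes of summits were compared within each replicate. Sequencing depth is unknown, so a summit absent from a replicate list may lie below what that list's depth allows to be called. A summit also counts as absent when the replicate's own summit lies more than 100 bp away.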
